A study of Mus musculus with 4 samples.

Results

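Mpo, Elane, Prtn3 and Ctsg encode enzymes of the primary granule of neutrophils, Padi4 encodes the enzyme that converts histone arginines during the release of neutrophil extracellular traps, and Serpinb1a encodes an inhibitor of the granule proteases. These 6 genes were chosen by name and function, with earlier results of these data known. All 6 were found among the 17476 genes of the count table. RNA was sequenced from myeloid-derived suppressor cells (MDSCs), myeloid cells of granulocyte or monocyte kind that dampen T cell responses, to compare cells with a mutated Trem2 gene with wild-type (WT) cells. The MDSCs were grown in culture from bone marrow of C57/BL6 mice (the WT group) or TREM2mut mice (the Trem2 mutant group), and every sample carries the strain label C57BL/6. In both groups the cultured cells were given to male NRG mice, a strain without lymphocytes that keeps myeloid cells of its own, which had been 6 weeks old when TRAMP-C1 prostate cancer cells were placed under the skin 4 weeks before. Tumours were taken 6 h after the injection, digested for 45 minutes, and the sort kept cells carrying CD45, CD11b and GR1 together. This gate holds no marker that parts injected cells from the recipient's own, and the labels do not describe the Trem2 mutation itself. There were 2 libraries in each group, named by their column numbers WT 1, WT 2, Trem2 mutant 1 and Trem2 mutant 3.

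Neutrophils fill their granules in waves as they mature. Primary (azurophil) granules form first, at the promyelocyte stage, when the genes of myeloperoxidase and of the neutrophil serine proteases are transcribed, and these transcripts fade before the secondary granule proteins such as lactoferrin are made. A mature neutrophil therefore carries much of the enzyme and little of its RNA. Elastase, proteinase 3 and cathepsin G are made as inactive precursors, trimmed by cathepsin C and stored in granules with the proteoglycan serglycin. In extracellular traps, elastase and myeloperoxidase are found on decondensed chromatin, and the serpin encoded by Serpinb1a blocks elastase, proteinase 3 and cathepsin G in the cytoplasm.

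The libraries held 8037733 to 10306674 reads. Trem2 itself had 406 and 477 reads in WT against 191 and 195 in the mutant pair, without overlap. The sort markers were detected in all 4 libraries: Ptprc (CD45) at 1114 to 1363 CPM (the usual count relative to library size, here scaled by TMM) and Itgam (CD11b) at 419.7 to 653.1 CPM. Ly6g, which encodes a GR1 antigen, was at 5.66 and 7.22 CPM in WT, against 143.5 and 122.8 CPM in the mutant pair. Reads of Gm42418, which shares sequence with ribosomal RNA, made up 13.9% of Trem2 mutant 1 and 0.258% to 1.04% of the other libraries. Xist, a noncoding RNA made from the silenced X chromosome in female cells, had 2 and 3 reads in WT against 6928 and 9117 reads in the mutant pair. The Xist difference runs with genotype, so the parts of the 2 cannot be told apart in these 4 libraries. The part of all these differences in the results below was not tested. In bulk RNA, fewer cells of a type and less RNA per cell cannot be told apart.

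All 6 genes had higher CPM in both mutant libraries than in either WT library, an order found for 28.9% of the 14239 genes tested. Serpinb1a, Elane, Padi4 and Mpo passed the threshold and rose in the mutant libraries, while Prtn3 and Ctsg did not pass (edgeR quasi-likelihood test, Benjamini-Hochberg adjusted p under 0.05). Of all genes tested, 9.55% were called higher and 3.6% lower, beside 4 and 0 of the 6 genes. The count of falls among the 6 was 0 by edgeR, by DESeq2 and by limma-voom, and 0 at an unadjusted p under 0.05. The order of the libraries left little room for a fall by any of these tests, so this count is no separate evidence. The median log2 fold change of the 6 genes was 1.86, beside −0.02 over all genes tested. Their fold changes ranked 20th (Serpinb1a), 44th (Elane), 111th (Padi4), 364th (Mpo), 484th (Prtn3) and 1110th (Ctsg) from the top.

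**Figure D1:**
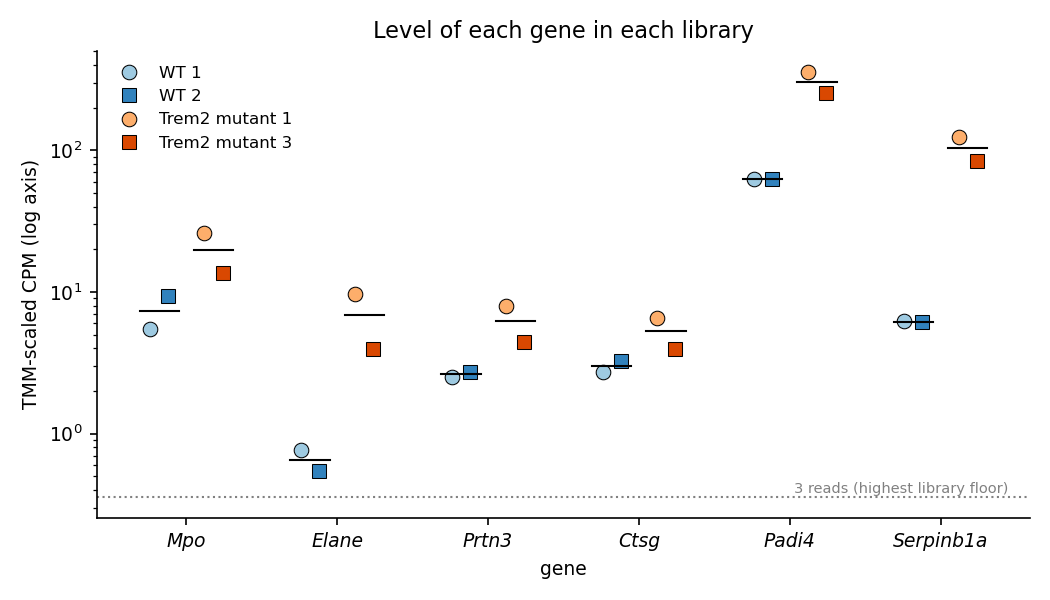
TMM-scaled CPM (log axis) of each gene in the 4 libraries; points are single libraries, black lines are group means (n = 2 each), and the dotted line marks the level of 3 reads in the library where it is highest. Both mutant points lie above both WT points for every gene, and Trem2 mutant 1 lies above Trem2 mutant 3 in all 6.

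Mpo (ENSMUSG00000009350, GRCm38 chromosome 11, 87793581 to 87804413, plus strand) encodes myeloperoxidase, which turns hydrogen peroxide and chloride into hypochlorous acid. It had 50 and 85 reads in WT 1 and WT 2, and 217 and 127 reads in Trem2 mutant 1 and Trem2 mutant 3. Scaled, these were 5.44 and 9.30 CPM in WT against 26 and 13.6 CPM in the mutant pair. The groups did not overlap, but the lower mutant library was 1.47-fold above the higher WT library, while the WT libraries differed 1.71-fold from each other. Mpo rose 2.67-fold, from 7.37 ± 2.73 to 19.8 ± 8.73 CPM (SD, n = 2 each; log2 fold change 1.42, SE 0.349, edgeR adjusted p = 0.0362). Without WT 1 the call was lost (log2 fold change 1.08, edgeR adjusted p = 0.183), and limma-voom did not call it (adjusted p = 0.0552). Without Trem2 mutant 1 the log2 fold change was 0.90. An antisense gene on the minus strand, Gm11505, shares exonic sequence with Mpo and had 20 to 49 reads. Whether counting used strand is not stated in the labels or notes, so some reads counted for Mpo could be those of Gm11505.

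The 3 neutrophil serine proteases had the fewest reads of the 6 genes in every library. Elane (ENSMUSG00000020125, GRCm38 chromosome 10, 79886247 to 79888215, plus strand) encodes neutrophil elastase, which cuts matrix and bacterial proteins and enters the nucleus during trap formation. It had 7 and 5 reads in WT and 81 and 37 reads in mutant libraries, which is 0.761 and 0.547 CPM against 9.70 and 3.98 CPM. Every mutant value was at least 5.22 times the higher WT value, though the mutant libraries differed 2.44-fold from each other. Elane rose 10.2-fold, from 0.654 ± 0.151 to 6.84 ± 4.05 CPM (SD, n = 2 each; log2 fold change 3.35, SE 0.561, edgeR adjusted p = 0.00862). The call held in every alternative tried, with log2 fold changes from 2.59 without Trem2 mutant 1 to 3.88 without Trem2 mutant 3. With only 12 WT reads the size of the fold is imprecise.

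Prtn3 (ENSMUSG00000057729, GRCm38 chromosome 10, 79874476 to 79883174, plus strand) encodes proteinase 3, the autoantigen of granulomatosis with polyangiitis, and 3072 bases lie between its end and the start of Elane. It had 23 and 25 reads in WT and 67 and 41 reads in mutant libraries, which is 2.5 and 2.74 CPM against 8.03 and 4.41 CPM. The WT libraries lay close together and the mutant libraries differed 1.82-fold. Its mean was 2.62 ± 0.166 CPM in WT against 6.22 ± 2.56 CPM in the mutant pair (SD, n = 2 each), and the log2 fold change of 1.23 (SE 0.352) did not pass (edgeR adjusted p = 0.0583). It passed without Trem2 mutant 3 (log2 fold change 1.63, edgeR adjusted p = 0.00309) and when noncoding and mitochondrial genes were left out (edgeR adjusted p = 0.0487). Exons of Plppr3 on the minus strand overlap those of Prtn3, and that gene had 139 to 195 reads. Plppr3 had a log2 fold change of −0.35 (edgeR adjusted p = 0.147) and did not pass.

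Ctsg (ENSMUSG00000040314, GRCm38 chromosome 14, 56099881 to 56102574, minus strand) encodes cathepsin G, a chymotrypsin-like protease. It had 25 and 30 reads in WT and 55 and 37 reads in mutant libraries, which is 2.72 and 3.28 CPM against 6.59 and 3.98 CPM. Trem2 mutant 3 lay only 1.21-fold above WT 2. The means were 3 ± 0.399 CPM in WT against 5.28 ± 1.85 CPM in the mutant pair (SD, n = 2 each), a log2 fold change of 0.80 (SE 0.329) that did not pass (edgeR adjusted p = 0.149). Without Trem2 mutant 1 the log2 fold change was 0.41, and without Trem2 mutant 3 it was 1.15 and passed (edgeR adjusted p = 0.0307).

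Elane and Prtn3 are neighbours, and their upstream sequences are shown because the same short words stand in them in the same order. Whether their fold changes differ was not tested. The sequences are from RefSeq's promoter table (GRCm38.p6), which held 5 of the 6 genes, Serpinb1a being the exception. A pair of 30-base stretches is given for each gene, 5′ to 3′ on the plus strand, with matches to the words in capitals. The first stretch of each gene holds AGGAAGT, a word bound by ETS family factors such as PU.1.
Elane, chr10:79886217-79886246: gtgtcccagggAGGAAGTagggctgtggcc
Prtn3, chr10:79879562-79879591: aaactggaaggAGGAAGTgggacccacagc
The second stretch holds AACGG, a Myb word, followed by TATAA, the core of the TATA box.
Elane, chr10:79886257-79886286: aatacAACGGcctctggttccagcTATAAg
Prtn3, chr10:79879610-79879639: tcAACGGctcccggcagagctgggcTATAA

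In Elane the words begin 84, 50 and 31 bases before the RefSeq start, and in Prtn3 they begin 94, 55 and 32 bases before it. The RefSeq start lies 65 bases inside the GENCODE M21 gene for Elane and 5191 bases inside it for Prtn3, where GENCODE has a longer transcript. Searched on both strands in the 120 bases before the start, AGGAAGT was found in 4.27% of 32851 promoters, AACGG in 7.59% and TATAA in 11.8%. All 3 words were found together in 13 promoters, or 0.0396%. The words were chosen after these promoters had been read, and a match does not show that a factor binds. In the same window Padi4 had TATAA only, and Mpo and Ctsg had none of the words. The C/EBP word TTNNGNAA, found in 18% of promoters, was in none of the 5 windows.

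Padi4 (ENSMUSG00000025330, GRCm38 chromosome 4, 140745865 to 140774236, minus strand) encodes peptidylarginine deiminase 4, a calcium-dependent enzyme of the nucleus. It had 576 and 569 reads in WT and 2984 and 2370 reads in mutant libraries, and its level per kilobase of exon was the highest of the 6 genes in every library. The WT libraries were nearly equal at 62.7 and 62.3 CPM, and the mutant libraries were at 357.5 and 254.7 CPM. Padi4 rose 4.90-fold, from 62.5 ± 0.263 to 306.1 ± 72.7 CPM (SD, n = 2 each; log2 fold change 2.29, SE 0.156, edgeR adjusted p = 2.05e-04). The call held in every alternative tried. Among the other deiminases, Padi2 had 54 to 76 reads and did not pass (log2 fold change −0.13, edgeR adjusted p = 0.745). Padi3 and Padi6 had at most 8 reads in any library and were not tested. Padi4 had 10.3 and 7.49 reads for each Padi2 read in WT 1 and WT 2, and 55.3 and 38.2 in Trem2 mutant 1 and Trem2 mutant 3.

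Serpinb1a (ENSMUSG00000044734, GRCm38 chromosome 13, 32842092 to 32851185, minus strand) encodes the mouse counterpart of human SERPINB1, the monocyte and neutrophil elastase inhibitor. It had 57 and 56 reads in WT and 1036 and 788 reads in mutant libraries, which is 6.20 and 6.13 CPM against 124.1 and 84.7 CPM. The lower mutant library was 13.7-fold above the higher WT library, the widest gap of the 6 genes. Serpinb1a rose 16.9-fold, from 6.17 ± 0.0498 to 104.4 ± 27.9 CPM (SD, n = 2 each; log2 fold change 4.08, SE 0.214, edgeR adjusted p = 4.81e-05). The call held in every alternative tried, between log2 fold changes of 3.69 (library totals alone) and 4.35 (without Trem2 mutant 3). Of the 50-base words of its transcripts, 2.81% also occur in transcripts of Serpinb1b, Serpinb1c or a pseudogene. The share was 9.46% for Mpo, with many other genes besides Gm11505, and 6.45% for Prtn3, with Plppr3, and counts from such words are uncertain. Elane, Ctsg and Padi4 shared no such word with another gene.

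**Figure D2:**
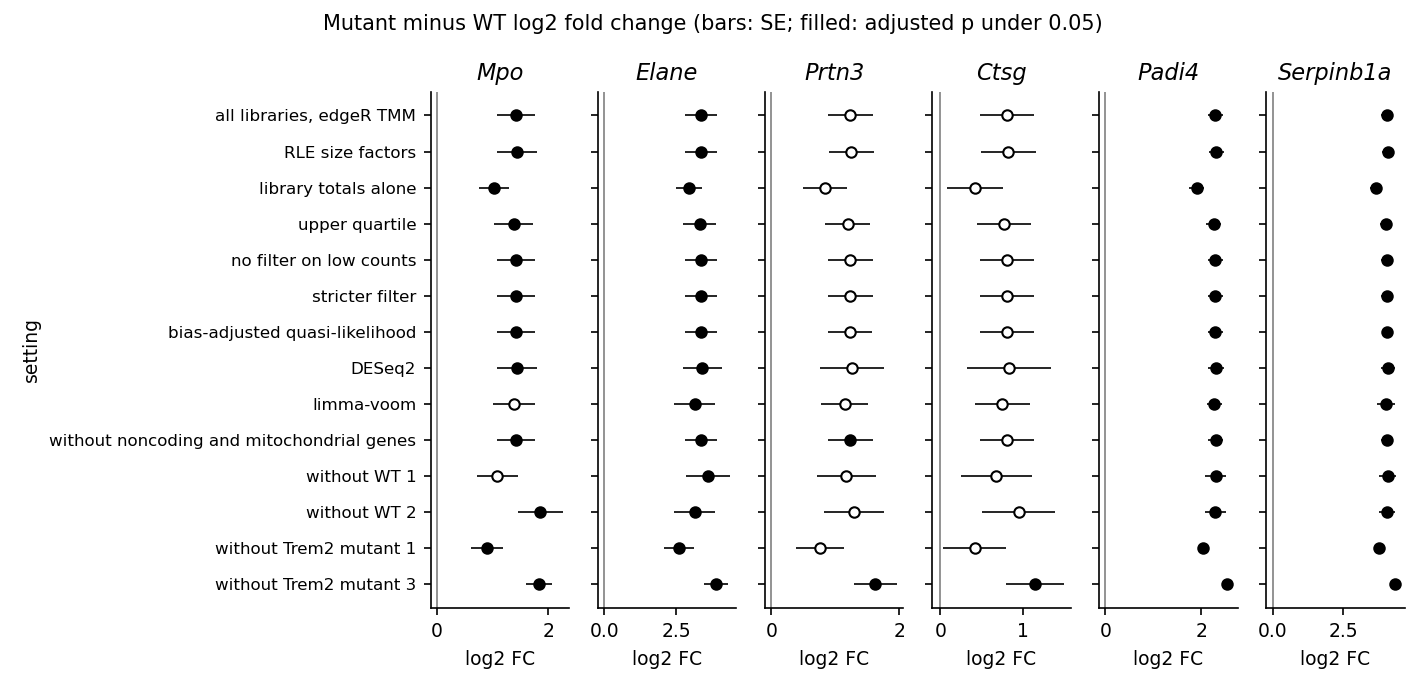
Log2 fold change of mutant minus WT for each gene (x axes differ between panels; bars are the standard error) under the test with all libraries and 13 other settings; filled points passed adjusted p under 0.05. Every point lies above 0; Elane, Padi4 and Serpinb1a are filled throughout, Mpo in all but limma-voom and without WT 1, and Ctsg only without Trem2 mutant 3.

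Per kilobase of exon, the order of the genes differed between the groups. The exon length used for Prtn3 (1732 bases) takes in the longer GENCODE transcript, so its level per kb depends on the annotation. In WT libraries Padi4 stood first at 12.9 ± 0.0543 CPM per kb, above Ctsg (2.91 ± 0.386), Serpinb1a (2.68 ± 0.0216), Mpo (2.15 ± 0.798), Prtn3 (1.51 ± 0.0958) and Elane (0.665 ± 0.154; SD, n = 2 each). The ranges of Ctsg, Serpinb1a and Mpo over the WT libraries overlapped, and whether these genes differ there was not tested. In mutant libraries Padi4 (63.3 ± 15.0) and Serpinb1a (45.3 ± 12.1) stood first and second in each library, at 73.9 against 53.9 CPM per kb in Trem2 mutant 1 and 52.7 against 36.8 in Trem2 mutant 3. Elane (6.95 ± 4.12), Mpo (5.79 ± 2.55), Ctsg (5.11 ± 1.79) and Prtn3 (3.59 ± 1.48 CPM per kb) followed with overlapping ranges. Of the 4 primary granule enzymes Elane was the lowest in both WT libraries and the highest in both mutant libraries, by a narrow margin in Trem2 mutant 3 (4.04 against 3.99 CPM per kb for Mpo).

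The inhibitor transcript was below the sum of the 3 protease transcripts in WT libraries and above it in mutant libraries. Serpinb1a over the sum of Elane, Prtn3 and Ctsg, in CPM per kb, was 0.555 and 0.501 in WT, and 2.58 and 3.52 in mutant libraries. The groups did not overlap, and the exact two-sided permutation test gave p = 0.333, the smallest that 2 libraries against 2 allow. Primary granule RNA was small beside the RNA of Ltf, Ngp and Camp in the mutant libraries. These 3 had the lowest p of 12 secondary and tertiary granule genes, so the ratio rests on genes picked from these data. For each 100 reads of Ltf, Ngp and Camp, which encode secondary granule proteins, the 4 primary granule enzymes had 13.3 and 21.6 reads in WT, and 0.547 and 0.409 reads in mutant libraries. The sums behind this ratio were 105 and 145 primary granule reads in WT against 420 and 242 in mutant libraries. The secondary granule genes had 792 and 670 reads in WT against 76731 and 59234 in mutant libraries.

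**Figure D3:**
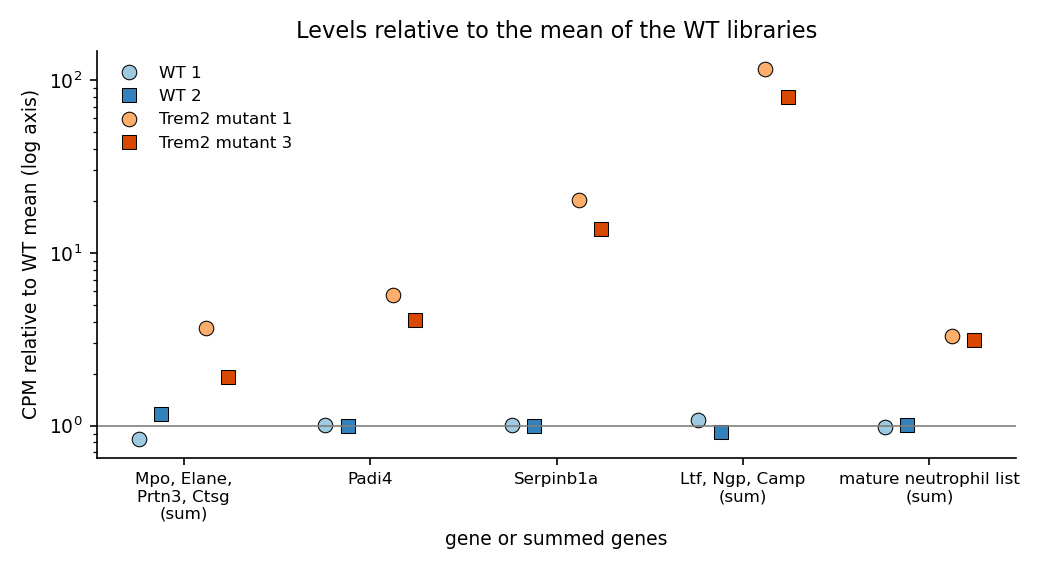
CPM of each gene or sum of genes divided by its mean over the WT libraries (log axis, grey line at 1); points are single libraries. The summed primary granule enzymes lie at 3.69 and 1.91 times the WT mean in the mutant libraries, Padi4 at 5.72 and 4.08, Serpinb1a at 20.1 and 13.7, and the sum of Ltf, Ngp and Camp at 115.3 and 79.8. The sum of the mature neutrophil genes lies at 3.30 and 3.15 times its WT mean in these libraries.

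Within the mutant pair, the level in Trem2 mutant 1 exceeded that in Trem2 mutant 3 for all 6 genes, against 49.5% of all genes tested. The ratio was 2.44 for Elane, 1.90 for Mpo, 1.82 for Prtn3 and 1.66 for Ctsg, and 1.47 for Serpinb1a and 1.40 for Padi4. The same order was common in other lists. It held for 10 of 11 granulopoiesis transcription factor genes, with ratios from 0.94 (Zeb2) to 2.23 (Gfi1), and for 8 of 9 tested progenitor and proliferation genes. It held for 11 of 12 secondary and tertiary granule genes, from 0.96 (Hp) to 2.08 (Fcnb), and for 10 of 10 monocyte and macrophage markers, the highest being C1qc at 2.10. Of 9 mature neutrophil genes 6 were higher in Trem2 mutant 1, from 0.78 (Il1r2) to 1.22 (Mmp25), and of 4 erythroid markers 0 were. Trem2 mutant 1 is also the library with the large share of Gm42418 reads, and the part of that share in these ratios was not tested.

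The genes whose centred log2 CPM over the 4 libraries lay closest to each of the 6 were found among 9174 or 9175 genes with a mean of at least 5 CPM, by the root mean square difference. Closest to Prtn3 was Cebpe (0.0337), the factor needed for secondary granule formation, followed by the mitotic genes Knl1 (0.0555) and Racgap1 (0.0566). Closest to Serpinb1a was Lcn2 (0.0565), a secondary granule gene, followed by Lipg (0.0598) and Stfa2 (0.132). Padi4 lay closest to Mgam (0.0689), Fam160a1 (0.0780) and Adpgk (0.108). Mpo lay closest to Nos2 (0.0772), Igfbp4 (0.106) and Fn1 (0.112), and Ctsg to Plxnb2 (0.0255), Herpud1 (0.0602) and Luzp1 (0.0684). Elane had the most distant neighbours, S1pr4 (0.186), Fam160a1 (0.228) and the mitotic gene Cenpf (0.270). The WT levels of Elane (0.761 and 0.547 CPM) were close to the 0.5 CPM added before logs were taken. The part of this in its distances was not tested. With 4 libraries many genes share a pattern, so this is a description only.

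Of 11 tested genes among other primary granule and promyelocyte genes, 3 rose, 1 fell and 7 did not pass, with a median log2 fold change of 0.33. Srgn, encoding serglycin, rose from 992.3 ± 149 to 2248 ± 176 CPM (SD, n = 2 each), Clec12a, an inhibitory lectin receptor, rose 1.65-fold, and Prss57, the fourth neutrophil serine protease, rose 9.76-fold. Prss57 had only 1 and 4 reads in WT and 26 and 23 in mutant libraries, and its call was lost without WT 1 (edgeR adjusted p = 0.0716). Gusb, a lysosomal glucuronidase, fell 1.26-fold, a call that did not hold without WT 1, without WT 2 or with DESeq2. Lyz2, the lysozyme of macrophages and neutrophils, was abundant in both groups, at 3569 ± 40.8 CPM in WT and 3046 ± 25 CPM in the mutant pair (SD, n = 2 each), and did not pass (edgeR adjusted p = 0.218). Ms4a3, a marker of granulocyte and monocyte progenitors, had 33 and 44 reads in WT and 87 and 45 in mutant libraries and did not pass either (edgeR adjusted p = 0.183). Without Trem2 mutant 3, 5 of this list rose and 2 fell, and with library totals alone 2 rose and 4 fell.

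Of 15 genes for the activation, sorting and release of granule proteins, 5 rose and 10 did not pass (median log2 fold change 0.27). Beside Srgn, Rab27a, a small GTPase of granule secretion, rose 1.70-fold and Vps13b 1.35-fold. Ctsc, which encodes the activating cathepsin C, was at 408.7 ± 8.14 CPM in WT against 514.9 ± 58.4 CPM in the mutant pair and did not pass (SD, n = 2 each; edgeR adjusted p = 0.0708). The count of rises in this list was 2 without WT 1 and 2 without WT 2, 8 (with 1 fall) without Trem2 mutant 3, and 2 with 3 falls under library totals alone. The Vps13b call did not hold without WT 1, without WT 2 or under library totals alone, nor did that of Clec12a under library totals alone.

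Of 9 tested serine protease inhibitors other than Serpinb1a, 3 rose and 6 did not pass (median log2 fold change 0.26). Serpinb2, an inhibitor of plasminogen activators, rose 2.47-fold, Serpinb10 3.8-fold from 10 and 12 reads in WT, and Serpinb6a 1.67-fold. The calls of Serpinb6a and Serpinb10 were lost without WT 1, leaving 1 rise, and that of Serpinb6a also without WT 2 and under library totals alone. Slpi, a secreted inhibitor of elastase and cathepsin G, did not pass, at 257.6 ± 1.61 CPM in WT against 214.5 ± 35.3 CPM in the mutant pair (SD, n = 2 each; edgeR adjusted p = 0.170).

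Of 14 tested genes of trap formation and clearance, 5 rose and 9 did not pass (median log2 fold change 0.32). Among the rises were the oxidase genes Cybb (2.22-fold) and Ncf1 (1.95-fold), Rac2 (1.68-fold), the GTPase of the oxidase, and Lmnb1 (1.75-fold), which encodes a lamin of the nuclear envelope. Gsdmd, the pore-forming gasdermin, and Casp4 did not pass (log2 fold changes −0.05 and 0.08). Dnase1 had 19 and 24 reads in WT and 6 and 12 in mutant libraries and did not pass (log2 fold change −1.20, edgeR adjusted p = 0.103). In this list 3 rose without WT 1, where the call of Lmnb1 was among those lost, and 2 rose and 3 fell under library totals alone.

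Of 11 transcription factor genes of granulopoiesis, 3 rose and 8 did not pass (median log2 fold change 0.32). Klf5 rose 3.91-fold, Cebpe 2.30-fold and Cebpb 1.33-fold. Gfi1 and Myb, whose products act at the promyelocyte stage and before, had few reads (8 to 51 in any library) and did not pass, with log2 fold changes of 1.58 and 1.63 (edgeR adjusted p = 0.0817 and 0.0677). Spi1, encoding PU.1, differed little (log2 fold change 0.19, edgeR adjusted p = 0.185). Without WT 1 the count of rises was 0, and 1 without WT 2, while 7 rose and 1 fell without Trem2 mutant 3. Of 9 tested progenitor and proliferation genes, 3 rose and 6 did not pass (median 0.87): Mki67 (1.53-fold), Cd34 (2.39-fold) and Top2a (2.19-fold). None of these 3 calls held without WT 1 or without WT 2.

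**Figure D4:**
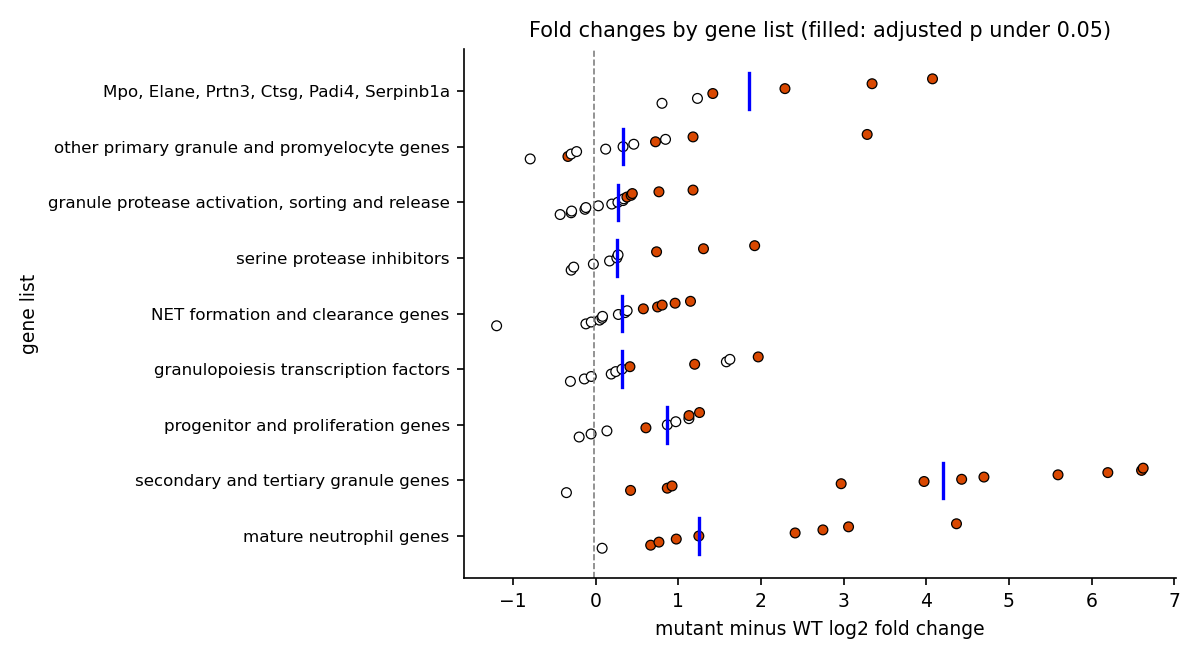
Log2 fold change of mutant minus WT for the tested genes of 9 lists; each point is a gene, filled where adjusted p was under 0.05, blue bars are list medians and the dashed line is the median of all genes tested. The medians are 1.86 for the 6 genes, 4.20 for secondary and tertiary granule genes, 1.25 for mature neutrophil genes, and 0.26 to 0.87 for the other 6 lists.

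Genes of later granules and of mature neutrophils were higher in the same libraries. Of 12 secondary and tertiary granule genes 11 rose (median log2 fold change 4.20), and of 9 mature neutrophil genes 8 rose (median 1.25). All 6 genes had fold changes below the secondary granule median, with Serpinb1a (log2 fold change 4.08) nearest to it and close to Lcn2 (3.97). The secondary and tertiary granule genes ranged widely, from −0.35 (Orm1) to 6.63 (Ltf). Orm1, Mmp8 (0.42), Hp (0.87) and Mmp9 (0.93) were lower than all of the 6 genes but Ctsg (0.80). Whether the fold changes of single primary and secondary granule genes differ was not tested.

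Of 4 tested protein-coding neighbours within 100 kb of Mpo, 2 rose and 1 fell. Tspoap1, 7653 bases away, rose 2.20-fold (edgeR adjusted p = 0.0125), and Mks1, a ciliary gene 48802 bases away, fell 2.94-fold (edgeR adjusted p = 0.0350). Epx encodes eosinophil peroxidase, the relative of myeloperoxidase in eosinophils, lies 59587 bases from Mpo, and rose 5.32-fold from 65 and 38 reads in WT to 261 and 267 in mutant libraries. Pxdn, the other heme peroxidase tested, rose 4.08-fold, and its call was lost with DESeq2, without WT 1 and without Trem2 mutant 3. Lpo, the lactoperoxidase gene between Mpo and Epx, was not in the table, which lists no gene under 11 reads in all. Near Prtn3, 13 neighbours were tested, of which 6 rose and 1 fell. The rises included Prss57 and Elane, itself among the 6 genes described here. Near Elane, in a window that shares most of these neighbours, 12 were tested, of which 3 rose and 1 fell. Of all genes tested, 9.55% were called higher and 3.6% lower. Mcpt8, a basophil protease gene 14608 bases from Ctsg, did not pass (log2 fold change −0.36, edgeR adjusted p = 0.428), and the other 8 neighbours of Ctsg, mast cell protease and granzyme genes, were not in the table. Near Padi4 only Rcc2 was tested and fell 1.25-fold, and near Serpinb1a only Wrnip1 was tested and did not pass.

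Markers of other cell types moved with genotype too. All 6 tested eosinophil markers rose, and the summed level of 7 markers was 99.8 to 100.7 CPM in WT against 211.1 to 238.7 CPM in the mutant pair, with Ear1 at 0 in both WT libraries. Of 6 tested fibroblast and mural markers 3 rose, with summed levels of 169.7 to 225.3 CPM in WT against 457.5 to 504.1 CPM in the mutant pair. Of 4 erythroid markers 3 rose, with sums of 6.74 and 27.6 CPM in WT against 61.3 and 164.1 CPM in the mutant pair. Of 10 monocyte and macrophage markers 5 rose (Ly6c2, C1qa, C1qb, C1qc and Apoe) and 5 did not pass, among them Csf1r, Adgre1 and Cd68 with log2 fold changes of −0.28, −0.20 and −0.31. Under library totals alone 5 rose and 3 fell. The sums of these markers were 1810 to 1909 CPM in WT against 1916 to 2275 CPM in the mutant pair. None of 4 tested mast cell and basophil markers passed, with sums of 14.2 to 22.8 CPM over all libraries. None of 5 B cell markers and not the 1 tested T and NK cell marker passed, and of 2 tested epithelial markers 1 fell. Without WT 1 the count of rises was 3 for eosinophil, 1 for erythroid and 1 for monocyte and macrophage markers, without WT 2 it was 3 for eosinophil and 2 for erythroid markers, and with DESeq2 it was 1 for erythroid markers. The part of these cells in the levels of the 6 genes was not tested.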

How the data were processed

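The authors deposited unnormalized read counts for Ensembl gene IDs, 1 column for each of 4 libraries. The submitters' processing notes name STAR 2.5.2a, FastQC, DESeq2 and the GRCm38 build, and neither they nor the labels name the read counter or its strand setting. Total RNA was sequenced after rRNA removal, per the labels' protocols. Of 17476 IDs, 17422 matched GENCODE M21 and 54 did not. One mutant column is numbered 3, which matches no label, and entered the mutant group by its name alone.

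The test was run in edgeR 4.0.16 under R 4.3.3: filterByExpr (14239 genes left), TMM scaling, and the quasi-likelihood test (two-sided, genotype as the only term, Benjamini-Hochberg adjustment over all genes tested, threshold 0.05). There were 2 residual and 5.71 prior degrees of freedom. Standard errors are the log2 fold change over the root of F. CPM per kb uses the union of GENCODE exons. DESeq2 1.42.0 and limma-voom (limma 3.58.1) were alternatives. A floor of 3 reads is 0.322 to 0.359 CPM, covering counting error only. Nothing in the labels says that libraries came from separate animals, so p-values reflect the spread between these libraries alone, and that spread may be technical.

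On simulated counts for this comparison (13949 genes), calls were made for 62 of the 96 genes given a 2-fold change (64.6%) and for 95 of the 96 given a 4-fold change (99%), and 8 of 165 calls were on unchanged genes. The 6 genes and all lists were chosen with earlier results of these data known. The rule named up to 3 genes per list with the lowest p and the 3 closest genes by pattern, leaving out predicted genes and computed on log2(CPM + 0.5). Gusb, Lyz2, Ms4a3, Ctsc, Slpi, Lmnb1, Gsdmd, Casp4, Dnase1, Gfi1, Myb, Spi1, the neighbours, the monocyte and macrophage markers and the genes named by their ratio within the mutant pair were named after their values were seen. The values of 1 gene counted among the trap formation genes are not reported here.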

Additional observations from a re-analysis of the deposited data

How the results depend on the processing

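The log2 fold changes of all 6 genes stayed above 0 in the 13 alternatives. Both mutant libraries were above both WT libraries for each gene, so leaving out a library could hardly reverse a sign. The number of the 6 called higher was 3 to 6 (main 4): 3 with limma-voom and without WT 1, 5 without noncoding and mitochondrial genes, and 6 without Trem2 mutant 3. Over all genes, 1360 were higher and 513 lower. With library totals alone, 650 were higher and 4365 lower (13% of calls higher instead of 72.6%), with the all-gene median at −0.40 on the log2 scale against −0.02. With DESeq2, 1063 were higher and 198 lower. With 1 library left out, 489 (without WT 1) to 2090 (without Trem2 mutant 3) genes were higher and 92 to 912 lower; without WT 2 the counts were 719 and 129. The lone library of a group was then assumed to vary like the other group. The cause of these shifts was not tested. The 2-fold recovery on simulated counts was taken over genes of all levels. It was not computed at the 23 to 67 reads per library of Prtn3 and Ctsg, so little can be read from their lack of a call. No paired analysis was possible because the columns of the groups share only the number 1.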
